A study of Mus musculus with 3 samples.

Results

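Peaks of the transcription factor HIF1α in the embryonic mouse heart were described at 8 genes for histone lysine methyltransferases, Kmt2a, Kmt2b, Kmt2c, Kmt2d, Kmt2e, Kmt5a, Kmt5b and Kmt5c, out of 21779 protein-coding nuclear genes. The genes were chosen by symbol, with earlier results of these data known, and every peak was taken whose centre lay inside the gene or within 50 kb of either end. Peak positions, scores and calls therefore chose what is described, and they are given without a test. Hearts of wild-type Black-Swiss embryos at E12.5 were analysed by chromatin immunoprecipitation and sequencing. The 2 pulldowns with a rabbit antibody against HIF1α were each called against 1 input, chromatin with no antibody, from hearts of the same strain, genotype and stage. The labels do not say whether the pulldowns came from separate pools of embryos. The authors' merged list holds 17289 peaks from both pulldowns and no value per library, so the values have no replicate error and the read depth is unknown. Whole hearts hold several cell types, and the list does not show in which of them a site was bound. Without expression values, the tissue label was not checked against marker genes.

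HIF1α is the oxygen-regulated subunit of a dimer that binds DNA at the core A or G followed by CGTG and switches on hypoxia response genes. KMT2 proteins carry a SET domain, and KMT2A to KMT2D, in complexes built around WDR5, RBBP5, ASH2L and DPY30, methylate lysine 4 of histone H3, a mark of promoters and enhancers. KMT5 proteins methylate lysine 20 of histone H4, a mark tied to replication, chromatin compaction and DNA repair. Loss of KMT2D is known to disturb heart development, and variants of its human gene cause Kabuki syndrome, in which heart defects are common.

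The 8 windows held 20 distinct peaks with no peak shared between genes. Of these 20, 7 (35.0%) were peaks of 2 merged calls and 13 were peaks of 1 call, while the whole list holds 1989 peaks of 2 calls (11.5%). The calls of a peak are the last number of its name, read as the number of calls merged into it. The score is a whole number that the authors gave to each peak, with no stated scale. It ranged from 2 to 41 over the 20 peaks, with a median of 5, against a median of 2 over the whole list.

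All 8 genes had at least 1 peak centre inside the gene or within 50 kb, as did 64.8% of all other protein-coding genes. All 8 had at least 2 such peaks, as did 34.3% of other genes. Kmt2b, Kmt2c and Kmt2d had 3 or more, as did 15.6% of other genes, and Kmt2c had 4, a number reached by 6.28% of other genes. A peak of 2 calls lay in the window of 5 of the 8 genes and of 21.4% of other genes. Those 5 genes were the whole KMT2 group, and Kmt2c and Kmt2d had 2 such peaks each, as 4.18% of other genes had at least. None of the 3 KMT5 genes had a peak of 2 calls in its window.

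**Figure D1:**
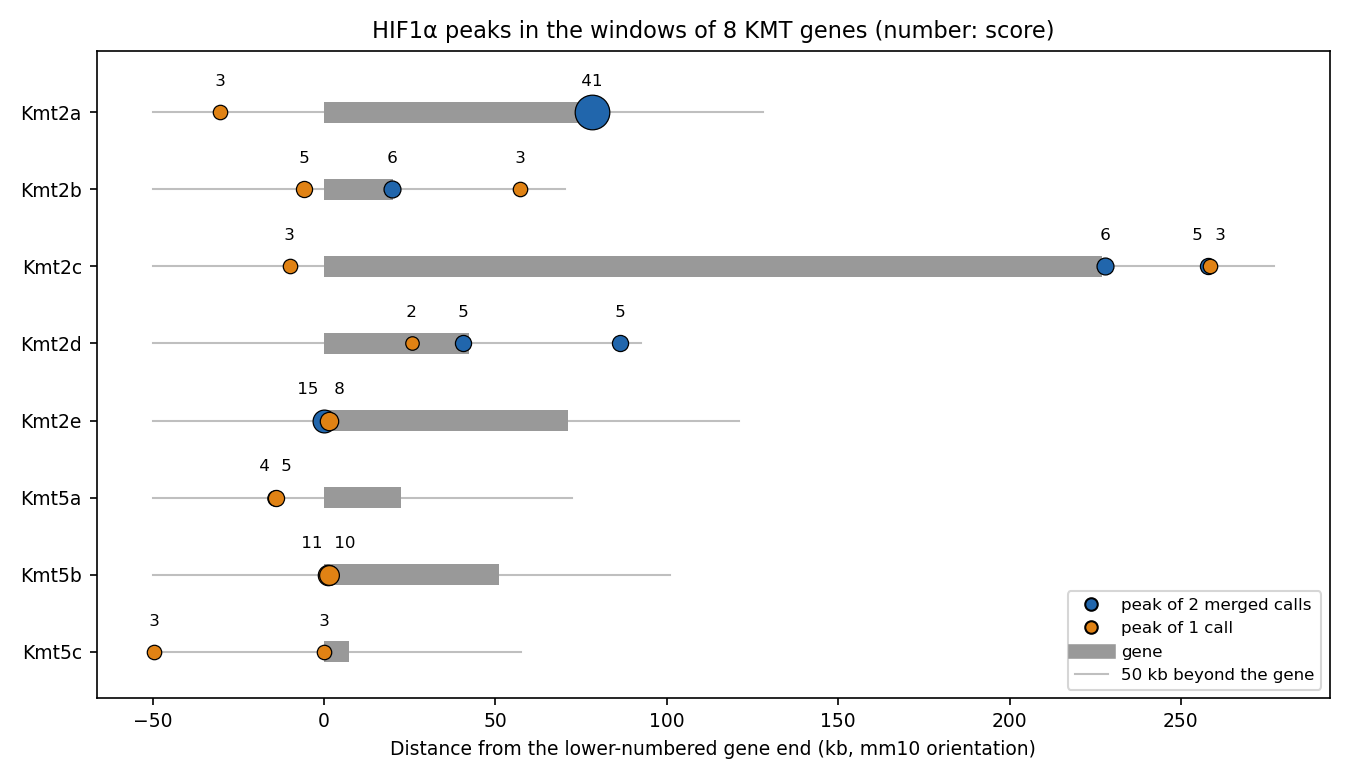
Position of each peak centre (points) in the windows of the 8 KMT genes, in kb from the lower-numbered gene end along the chromosome; grey bars are genes, thin lines the 50 kb beyond them, numbers and point sizes the peak scores. The KMT2 rows carry the 7 peaks of 2 calls, 5 of them at a gene end, and the Kmt5a row has both of its peaks beyond the gene.

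Near the gene ends the count was 7 of 8, with Kmt5a as the gene without a peak centre within 5 kb of either end. Of all other protein-coding genes, 24.0% had such a peak. With peaks of 2 calls alone the 5 KMT2 genes were near a peak, as were 7.7% of other genes. Within 1 kb of an end the genes were Kmt2a, Kmt2b, Kmt2c, Kmt2e and Kmt5c, 5 of 8, against 16.2% of other genes, and 4 of 8 with peaks of 2 calls, against 5.53%. A peak of score 10 or more within 5 kb was found at Kmt2a, Kmt2e and Kmt5b, 3 of 8, and at 0.818% of other genes. The centre of a peak lay inside 5 of the 8 genes and inside 21.1% of other genes. These windows are nested, so 1 peak can enter several of the counts.

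**Figure D2:**
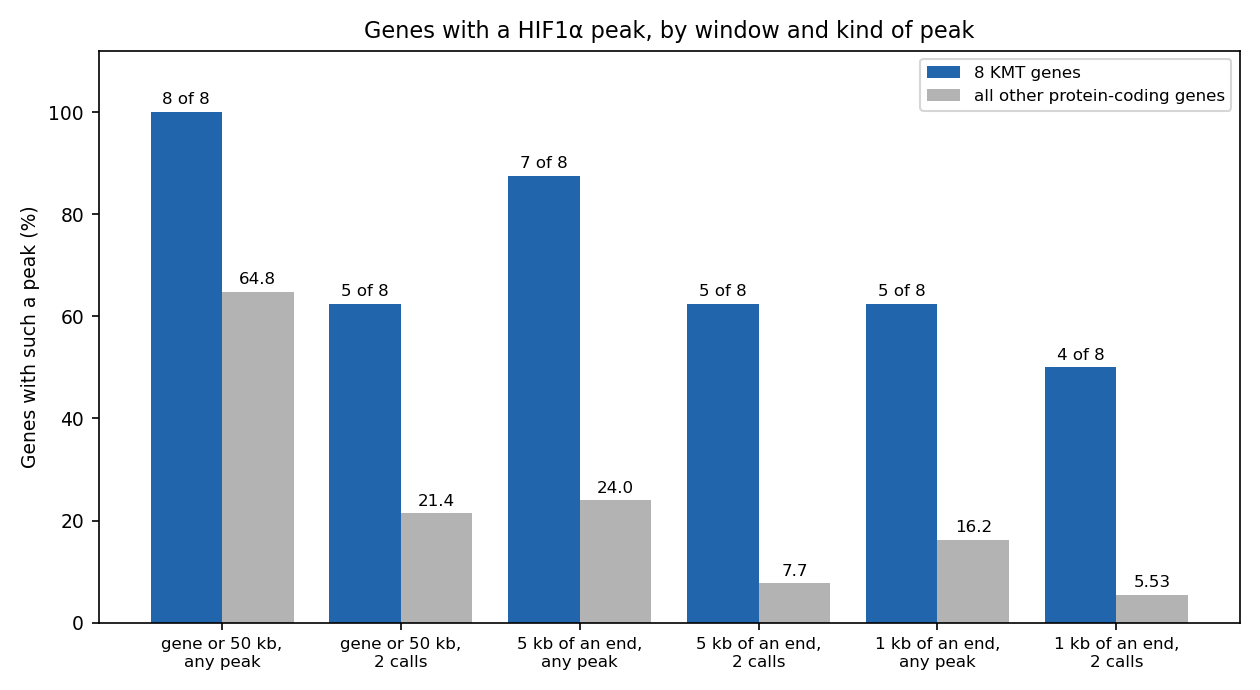
Share of genes (percent) with a HIF1α peak in 6 combinations of window and kind of peak, for the 8 KMT genes (blue, counts above the bars) and all 21771 other protein-coding genes (grey, percent above the bars). The KMT share is the higher one in each combination, from 8 of 8 against 64.8% for any peak in the widest window to 4 of 8 against 5.53% for peaks of 2 calls within 1 kb of an end.

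Kmt2a encodes the methyltransferase MLL1, which maintains Hox gene expression and is rearranged in human leukaemia. Its strongest peak had a score of 41 from 2 calls and its centre lay 98 bp beyond the higher-numbered end of the gene (mm10, chromosome 9, 44881385 to 44881515). Of the whole list, 32 peaks (0.185%) scored 41 or more, and 28 of them were of 2 calls. Counting Kmt2a, 18 protein-coding genes (0.0826%) had a peak that high within 5 kb of an end. For scale, the highest score within 5 kb was 19 at Egln1, 100 at Ankrd37 and 109 at Eno1, all known targets of HIF. The other peak in the Kmt2a window scored 3 from 1 call and lay inside the neighbouring gene Ift46, 30.2 kb from Kmt2a.

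The Kmt2a peak fell whole inside the promoter that RefSeq lists for the gene on the minus strand, from 226 to 96 bases before the listed start at 44881289. The centre also lies within Gm39326, a long noncoding RNA gene that overlaps this stretch. The peak is shown first below because it carries the highest score of the set. The other 3 stretches are the remaining peaks of 2 calls that the RefSeq promoter table (GRCm38.p6, the same build as mm10) covers whole or in large part, and all 4 are printed 5′ to 3′ on the strand of the promoter, with capitals marking the HIF core ACGTG or GCGTG on either strand.
Kmt2a promoter, chr9:44881385-44881515, minus strand: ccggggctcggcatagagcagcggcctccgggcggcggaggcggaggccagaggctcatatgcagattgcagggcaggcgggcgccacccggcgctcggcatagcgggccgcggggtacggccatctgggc
4831440E17Rik promoter beside Kmt2c, chr5:25499699-25499833, plus strand: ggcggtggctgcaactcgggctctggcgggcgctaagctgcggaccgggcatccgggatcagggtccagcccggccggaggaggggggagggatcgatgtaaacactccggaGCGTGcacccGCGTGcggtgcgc
1700096K18Rik promoter in the Kmt2c window, chr5:25529768-25529860, plus strand: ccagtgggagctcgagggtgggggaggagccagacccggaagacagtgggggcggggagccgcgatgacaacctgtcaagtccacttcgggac
Lmbr1l promoter in the Kmt2d window, chr15:98918123-98918226, minus strand: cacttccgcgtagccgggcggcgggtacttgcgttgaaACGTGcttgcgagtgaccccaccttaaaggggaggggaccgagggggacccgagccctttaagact

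The strongest peak of the set thus held no HIF core in its 131 bases, of which 75.6% were G or C, while it held 1 GC box (GGGCGG). The stretch beside Kmt2c held 2 cores in 135 bases, at bases 113 and 123 of the sequence as printed. The Lmbr1l stretch held 1 core in 104 bases, at base 39. The 93 bases printed of the 105 bp peak at 1700096K18Rik held none. Of all 32851 promoters in the table, 26.3% hold the core in the last 131 bases before the start, 26.8% in the last 135, 22.5% in the last 104 and 20.7% in the last 93. These shares match the printed stretches in length but not in position. The Kmt2a stretch ended 96 bases before its start, and the stretch beside Kmt2c ran to 36 bases after its start. A match of 5 letters describes the sequence and does not locate a bound site.

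Kmt2b encodes a methyltransferase closely related to MLL1. It had 3 peaks, of which the nearest to the gene scored 6 from 2 calls, inside the gene and 271 bp from its higher-numbered end (chromosome 7, 30588722 to 30588848). The centre of that peak was 6 bp from an end of Gm32082, a long noncoding RNA gene that overlaps Kmt2b there. A score of 6 or more was reached by 29.2% of peaks of 2 calls, whose median score is 4. The remaining 2 peaks were of 1 call. The first scored 5, lay 5691 bp beyond the lower-numbered end of Kmt2b, and was 176 bp from U2af1l4, which encodes a splicing factor subunit, inside Psenen, which encodes a subunit of γ-secretase. The other scored 3, lay 37.1 kb beyond the higher-numbered end and was 2 bp from an end of Cox6b1, which encodes a subunit of cytochrome c oxidase.

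Kmt2c and Kmt2d encode the large methyltransferases MLL3 and MLL4, which place the monomethyl mark at enhancers. Kmt2c, the longest of the 8 genes at 227 kb, had no peak centre inside it. Its nearest peak scored 6 from 2 calls and lay 911 bp beyond the higher-numbered end (chromosome 5, 25499699 to 25499833), 983 bases before the RefSeq start of Kmt2c on the minus strand. The same peak was 31 bp from the end of 4831440E17Rik, a long noncoding RNA gene, and spanned that gene's start on the plus strand, from 98 bases before it to 36 after. The window of Kmt2c held 3 further peaks. A peak of score 5 from 2 calls lay 31.0 kb beyond the gene (25529756 to 25529860), 210 bp from 1700096K18Rik, a long noncoding RNA gene, and a peak of score 3 from 1 call followed 329 bp further on. The last, of score 3 from 1 call, lay 9896 bp beyond the lower-numbered end, inside Galnt11, a gene of protein glycosylation.

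Kmt2d had 2 peaks inside the gene. The one of 2 calls scored 5 and lay 1815 bp from the higher-numbered end (chromosome 15, 98872200 to 98872324), 1057 bases before the listed RefSeq start on the minus strand. The one of 1 call scored 2, the lowest score in the list, and lay 16.8 kb from the nearest gene end. The remaining peak of the window scored 5 from 2 calls, 44.1 kb beyond Kmt2d and 76.5 bp from Lmbr1l, which encodes a lipocalin receptor of the membrane (98918123 to 98918226). A score of 5 or more was reached by 46.1% of peaks of 2 calls, so the peaks of 2 calls in the Kmt2d window were close to the middle of their kind.

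Kmt2e encodes MLL5, a divergent member with a SET domain that has little or no methyltransferase activity of its own. Its first peak scored 15 from 2 calls and its centre lay 52 bp inside the lower-numbered end of the gene (chromosome 5, 23433033 to 23433143). Of peaks of 2 calls, 94 (4.73%) scored 15 or more, and 82 protein-coding genes (0.377%) had a peak that high within 5 kb of an end. The centre also lay inside 5031425E22Rik, a long noncoding RNA gene that overlaps this end of Kmt2e. The second peak scored 8 from 1 call, 1277 bp away, 1329 bp inside Kmt2e and 12 bp from an end of 5031425E22Rik (23434315 to 23434415). Among peaks of 1 call, 29 (0.19%) reached a score of 8.

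**Figure D3:**
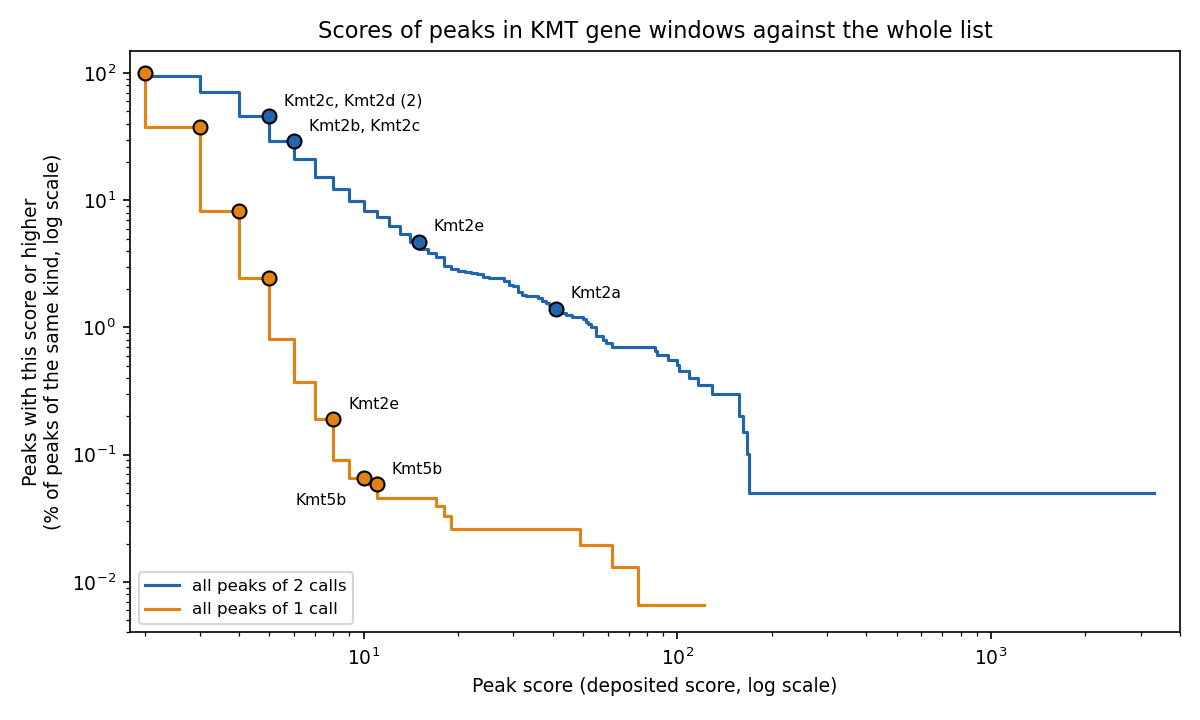
Share of peaks with at least a given score (percent of all peaks of the same number of calls; both axes logarithmic), with the peaks in the KMT windows as points and those of 2 calls, or of score 8 or more, labelled by gene. Kmt2a at 41 and Kmt2e at 15 sit in the last 1.41% and 4.73% of the falling curve of peaks of 2 calls. The Kmt5b peaks at 11 and 10 and the second Kmt2e peak at 8 sit in the last 0.19% of the curve of peaks of 1 call.

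Kmt5b, with Kmt5c, encodes the enzymes that add further methyl groups, after the first, to lysine 20 of histone H4. Its 2 peaks had scores of 11 and 10 and lay 170 bp apart inside the gene, 1184 and 1354 bp from its lower-numbered end (chromosome 19, 3768496 to 3768596 and 3768666 to 3768766). RefSeq lists 2 starts for Kmt5b, and the centres lay 657 and 827 bases after the nearer one. Each peak is of 1 call, a kind in which such scores are rare: of 15300 such peaks, 10 (0.0654%) reached a score of 10, and 2 of those 10 were the Kmt5b peaks. They were also the 1 pair among those 10 with centres within 1 kb of each other. The list does not mark which pulldown a call came from, so whether the Kmt5b peaks came from the same pulldown or from both cannot be read from it. Their windows of 101 bp do not overlap.

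Of all peaks in the list, 5.97% had another peak within 1 kb. Neighbours that close lay in the windows of 3 of the 8 KMT genes and of 5.38% of other protein-coding genes. The 3 genes were Kmt5b, Kmt5a and Kmt2c, the last with a peak of 2 calls beside 1 of 1 call. Kmt5a encodes SET8, the enzyme that adds the first methyl group to lysine 20 of histone H4 and is needed for passage through the cell cycle. Its 2 peaks scored 4 and 5 from 1 call and lay 219 bp apart, 14.3 and 14.1 kb beyond the lower-numbered end. They were inside the neighbouring gene Sbno1, which encodes a helicase-like regulator, 388 and 169 bp from its end (chromosome 5, 124425569 to 124425669 and 124425788 to 124425888). The closest of the 3 starts that RefSeq lists for Kmt5a was 14.1 kb from the nearer peak.

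Kmt5c, the shortest of the 8 genes at 7.42 kb, had a peak of score 3 from 1 call 103 bp inside its lower-numbered end (chromosome 7, 4740145 to 4740245), 68 bases after the listed start. That score is common, as 37.5% of peaks of 1 call reached it, and 19.3% of protein-coding genes had a peak of score 3 or more within 5 kb of an end. Its second peak, also of score 3 from 1 call, lay 49.5 kb beyond the gene and 3 bp from the end of Brsk1, a kinase gene. Of the 20 peaks this one was the nearest to the edge of the 50 kb window. Just outside the windows, the closest peaks were at 53.0 kb from Kmt2a (score 2 from 1 call), 59.8 kb from Kmt5b (score 3 from 1 call) and 60.0 kb from Kmt2d (score 8 from 2 calls).

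Of the 20 peaks, 10 had the KMT gene as the nearest protein-coding gene and 10 were nearer to an end of another one. The peaks nearest to a KMT gene scored 2 to 41 with a median of 7, and those nearest to another gene scored 3 to 5 with a median of 3.5. Of the 7 peaks of 2 calls, 5 were nearest to the KMT gene, 1 each at Kmt2a, Kmt2b, Kmt2c, Kmt2d and Kmt2e. The other 2 were nearest to Cct8l1 (11.8 kb away, in the Kmt2c window) and Lmbr1l. All scores of 8 or more belonged to the peaks of Kmt2a, Kmt2e and Kmt5b that were nearest to those genes.

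The KMT genes were longer than others, with a median length of 46.7 kb against 17.2 kb over other protein-coding genes, and a longer gene has a wider window. Per 100 kb of window, the 8 genes held 1.52 peaks in all, against 0.855 over other protein-coding genes. Single genes ranged from 1.12 peaks per 100 kb at Kmt2a to 2.5 at Kmt2b. At least as many per 100 kb were found at 29.3% of protein-coding genes for Kmt2a and at 8.83% for Kmt2b. Kmt2a, the gene with the highest score, thus had the lowest number of peaks per length of the 8.

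The width of a merged peak beyond the 101 bp of a single call gives the distance between its calls. It was 30 bp at the Kmt2a peak, 10 bp at Kmt2e, 26 bp at Kmt2b, 34 bp at Kmt2c and 24 bp at Kmt2d. The merged peaks beside 1700096K18Rik and Lmbr1l were tighter, at 4 and 3 bp. Over all peaks of 2 calls the median was 21 bp and the quartiles were 9 and 39 bp. The 5 peaks at KMT gene ends therefore all lay between the quartiles of the list, and the other 2 below the lower one.

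**Figure D4:**
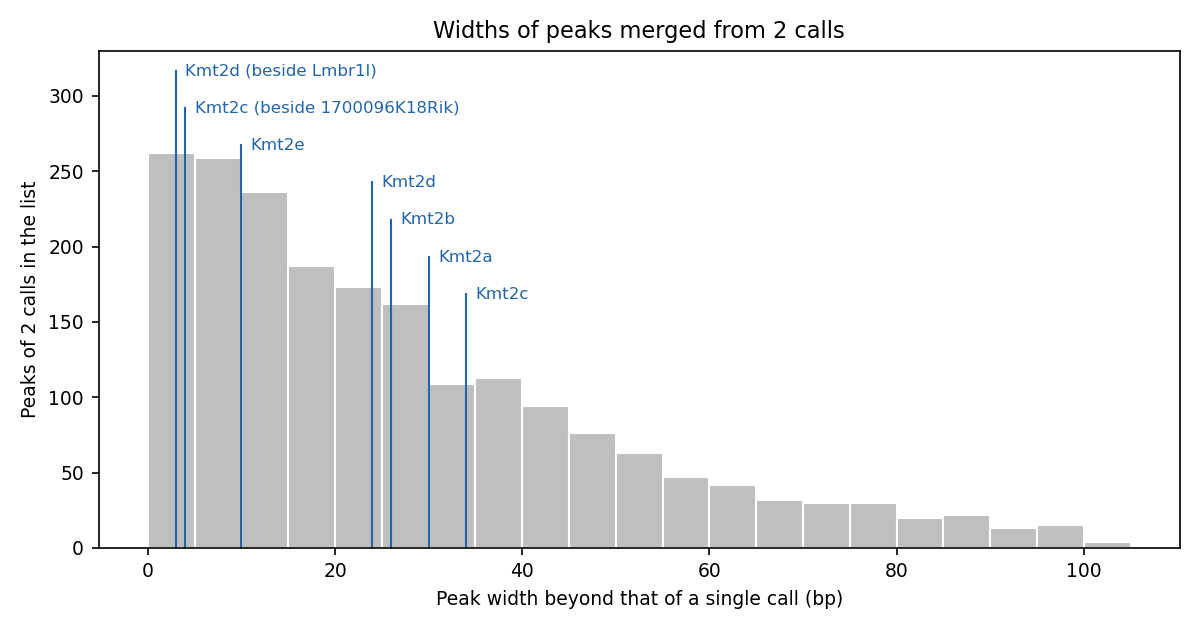
Histogram of the width beyond 101 bp for all 1989 peaks of 2 calls (grey, bins of 5 bp), with the 7 peaks in KMT windows as lines labelled by gene; the heights of the lines carry no value. The 5 peaks at KMT gene ends lie between 10 and 34 bp, and the peaks beside Lmbr1l and 1700096K18Rik at 3 and 4 bp.

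The RefSeq table lists 9 promoters for 6 of the 8 genes, each from 250 bases before to 50 after a start. The HIF core was found in 5 of these 9 promoters, which belong to 4 of the 6 genes, against 43.8% of all promoters in the table. Kmt2a and Kmt2d had no core in their promoter. Kmt5a held 3 cores, all in its second listed promoter, the first of them 188 bases before that start. Kmt5c held 1 core 148 bases before its start, and Kmt2c 1 core 32 bases after it. Kmt5b held 1 core in each of its 2 promoters, 69 bases before the first start and 34 bases after the second. ACGTG alone was in 1 of the 9 promoters, the second of Kmt5b, against 19.6% of all promoters, and the E-box CACGTG, which contains ACGTG, was in none, against 7.15%.

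The GC box GGGCGG was found in 8 of the 9 promoters, with Kmt5c as the exception, against 35.7% of all promoters. Base composition differs between these sets: G and C made up 57.3% (first Kmt5b promoter) to 88.0% (Kmt2c) of the KMT promoters, against a median of 52.7% over the table. Its part in the motif counts was not tested.

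Genes that act with the KMT enzymes or against them were taken from 4 lists of 61 genes, all matched in the gene table. Over the lists, 28 genes (45.9%) were within 5 kb of a peak, against 24.0% of protein-coding genes other than the KMT set, and 12 (19.7%) within 5 kb of a peak of 2 calls, against 7.7%. Among 20 subunits of the COMPASS and KMT2 complexes 12 (60.0%) were within 5 kb of a peak, and 4 of these, Wdr5, Hcfc2, Cxxc1 and Paxip1, of a peak of 2 calls. The closest peaks were at Wdr82 (31 bp, score 3 from 1 call), Cxxc1 (41.5 bp, score 6 from 2 calls), Hcfc1 (52 bp, score 3 from 1 call) and Hcfc2 (59 bp, score 4 from 1 call). Wdr82 and Cxxc1 belong to the SETD1 complexes, and the Hcfc genes encode host cell factors that bind KMT2 complexes. Of the shared core, Rbbp5 had a peak at 263 bp, Wdr5 at 3.67 kb and Dpy30 at 3.97 kb (182 bp from Memo1, the nearer gene), while the closest peak to Ash2l was 12490 bp away, deep inside the gene. These core genes are named for their role, and Paxip1 after its value was seen, outside the rule of the closest 4.

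Of 8 genes for demethylases of lysine 4 of histone H3, 4 (50.0%) were within 5 kb of a peak. Riox1 (4 bp, score 3), Kdm1a (44 bp, score 4) and Kdm5c (77 bp, score 5) had peaks of 1 call, and the Kdm5b peak, at 3.76 kb, scored 12 from 2 calls. Kdm1a encodes LSD1, and the KDM5 enzymes remove the trimethyl mark that KMT2 and SETD1 complexes place.

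Among 24 other histone lysine methyltransferases 10 (41.7%) were within 5 kb of a peak, 5 of them of a peak of 2 calls. The closest were at Prdm2 (27 bp, score 4 from 1 call), Setdb1 (40 bp, score 6 from 1 call), Dot1l (44 bp, score 4 from 2 calls) and Ezh2 (72 bp, score 4 from 1 call). Setdb1 and Ezh2 encode enzymes of repressive chromatin, and Dot1l the enzyme for lysine 79 of histone H3. The 2 highest of the closest peaks in this list, named after their values were seen, were 18 at Nsd1 (3.72 kb, but 8 bp from Prelid1) and 14 at Setd5 (529 bp), both of 2 calls. Both were below the 41 at Kmt2a. The list drawn up for readers and demethylases of lysine 20 of histone H4 held 9 genes. Of these, 2 (22.2%) were within 5 kb of a peak, close to the 24.0% of other protein-coding genes. Both had a peak of 2 calls there, so the share for peaks of 2 calls was also 22.2%, against 7.7% of other genes. The 2 genes were Msh6 (74.5 bp, score 4 from 2 calls) and Phf8 (118 bp, score 4 from 2 calls). Whether Msh6 belongs among readers of this mark was not checked.

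**Figure D5:**
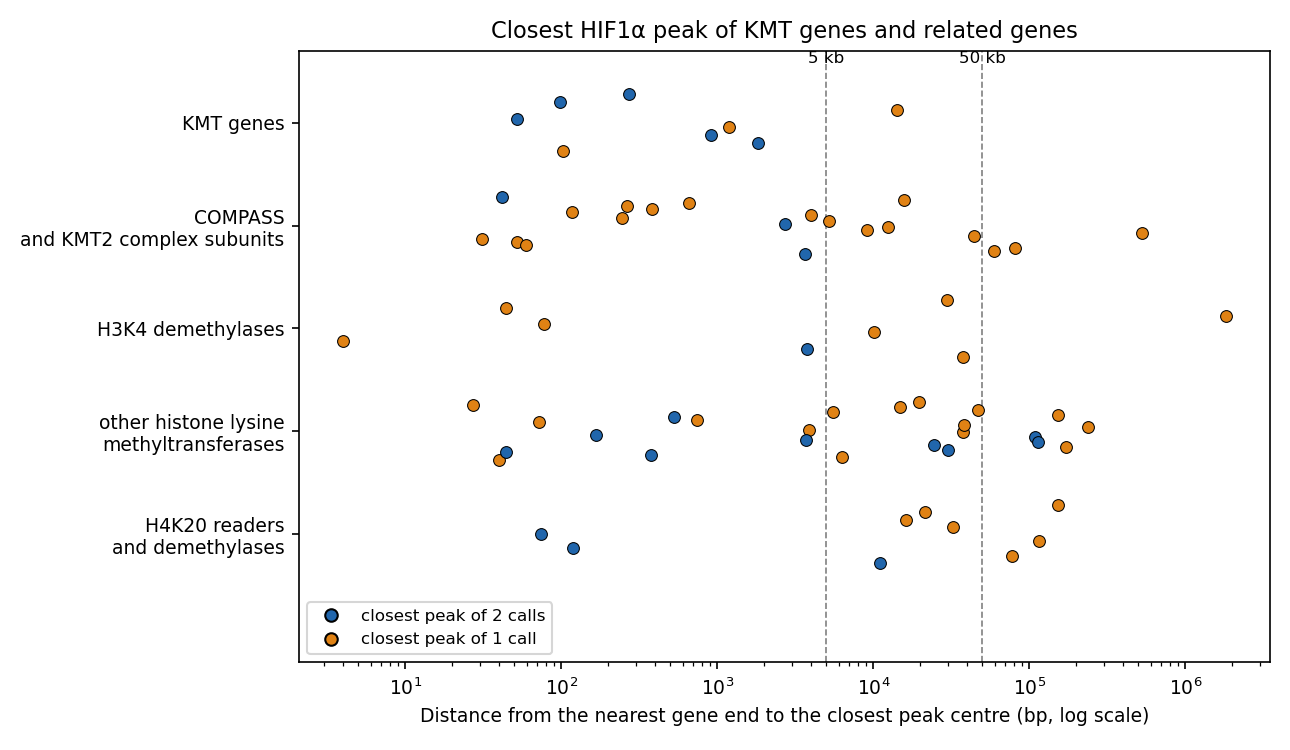
Distance from the nearest gene end to the closest peak centre (bp, log axis) for the 8 KMT genes and 61 related genes in 4 lists, 1 point per gene, coloured by the calls of that peak; dashed lines mark 5 and 50 kb and the vertical scatter within a row carries no value. Of the KMT genes 7 lie left of 5 kb, 5 of them with a peak of 2 calls, while the lists of related genes also extend beyond 50 kb.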

How the data were processed

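Hearts (E12.5) were cross-linked in 1.5% formaldehyde for 10 minutes and the chromatin was sheared to about 200 bp, per the labels' protocols. The submitters' processing notes name Bowtie2, HOMER and the mm10 build, without versions. The authors deposited 1 list that, per the file headers, joins the calls of both pulldowns over input. In this deposited list the score takes whole values from 2 upwards on a scale that is not stated, so it was compared only within the list. The calling threshold is not given in the sources used here, and the depth of the libraries is unknown.

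Genes came from RefSeq GRCm38.p6 (mm10), which gives both gene ends, after leaving out genes without a chromosome and those that end below 3 Mb on chromosomes other than Y and the mitochondrial genome. Starts and sequences came from the RefSeq promoter table. Distances run from the peak centre. Counting was done in Python 3.11.15 with pandas 2.3.3 and numpy 2.4.6 and tested on simulated data. No p-value was computed, since the peaks chose what is described.

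The members and lists were chosen with earlier results of these data known. Every peak of the 8 genes was described, and from each related list up to 4 genes within 5 kb of a peak were named, those closest to one, with exceptions stated in the text. An item of these lists is not reported here. Alternatives varied the window, score, calls, overlap, gene assignment and joining of peaks.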

Additional observations from a re-analysis of the deposited data

How the results depend on the processing

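Of 41 alternatives to the main values, 30 stayed within 1.5 times or, for peaks per length, within the counting interval. Some of these could not move, so the tally does not measure stability. The count of 8 of 8 genes cannot rise in a wider window. Every peak of 2 calls in the windows scored 5 or more, above the score limits tried. With listed gene starts alone, the count near a peak was 5 out of 6 genes, in place of 7 out of 8. A peak of 2 calls was found in the window of 5 KMT genes under all alternatives tried but 1: inside the gene body alone the count was 3, because the Kmt2a and Kmt2c peaks lie beyond the gene. For any peak, the count of 8 genes was 5 with the gene body alone, against 21.1% of other protein-coding genes, and 7 or 8 otherwise. Within 500 bp of an end the count was 4 in place of 7. Within 5 kb of an end, scores of at least 3 left the count at 7, against 19.3% of protein-coding genes. No share of other genes was computed within 500 bp, for other lengths beyond the gene or for score limits in the 50 kb window. None was computed for peaks of 2 calls in the gene body. Those counts therefore describe the KMT genes alone. The 20 peaks of the windows were 12 with 10 kb beyond the gene, 10 with 5 kb, 8 with the gene body alone, 10 when each peak counted for its nearest protein-coding gene and 13 at scores of at least 4. Peaks of 2 calls alone gave 0.53 per 100 kb of window in place of 1.52, and 12 related genes within 5 kb in place of 28. With ACGTG alone, 1 gene in place of 4 held the motif in a promoter. All of these follow from the narrower window, subset or motif. No replicate could be left out, since the list does not mark the pulldown of a call. No paired analysis was possible because the list holds no value per pulldown.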
